A study of Homo sapiens with 6 samples.

Results

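H3K27ac and H3K4me3 were set side by side in HSC3 cells in which the lncRNA DLEU1 had been knocked down, by comparing the peak list of each mark region by region. On chromosomes 1 to 22 and X, the members were 17672 H3K27ac regions and 56943 H3K4me3 regions, 74615 of the 152902 regions in the 4 peak lists of the study. HSC3 is a cell line from a squamous cell carcinoma of the tongue, one of the oral squamous cell carcinomas (OSCC). The cells carried siDLEU1 for 72 h, and cells with the control siRNA, siCONT, were collected at the same time. There was 1 ChIP-seq library for each mark and siRNA and 1 line, so no value has a replicate check, no p-value is given, and intervals in brackets are 95% intervals for the counting of regions or genes only. The question was where the active marks coincide and where they part after the knockdown.

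H3K4me3 is laid down at active and poised promoters, mainly at CpG islands, by the SETD1 and KMT2 methyltransferase complexes, which bind unmethylated CpG through zinc finger CXXC proteins. H3K27ac is written by the acetyltransferases EP300 and CREBBP at active promoters and active enhancers, and it is removed by histone deacetylases. Both marks usually flank the nucleosome-depleted stretch at a transcription start site (TSS), and a promoter with H3K4me3 but no H3K27ac is often read as poised or weakly active.

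The sequences under the regions differed by class, and examples picked after values were seen are shown to illustrate their CpG content. Each is 150 bases of GRCh37 (hg19), from the gene's strand and ending just before its canonical TSS, or centred on a summit and given on the plus strand, with each CpG in capitals. HIPK3, WDR5 and CDK6 carried both marks, GPT2 and GCDH carried H3K27ac only, and DSG3 carried H3K4me3 only. The last example is the summit of an H3K27ac region inside PBX3 without H3K4me3.
HIPK3, both marks, chr11:33278777-33278926, plus strand: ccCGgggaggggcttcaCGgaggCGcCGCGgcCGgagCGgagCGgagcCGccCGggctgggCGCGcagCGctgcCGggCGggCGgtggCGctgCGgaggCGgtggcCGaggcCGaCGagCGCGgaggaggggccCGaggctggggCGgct
WDR5, both marks, chr9:137001054-137001203, plus strand: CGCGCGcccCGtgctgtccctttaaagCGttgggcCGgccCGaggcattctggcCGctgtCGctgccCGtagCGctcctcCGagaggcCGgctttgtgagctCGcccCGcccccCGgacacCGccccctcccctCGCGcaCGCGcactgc
CDK6, both marks, chr7:92465888-92466037, minus strand: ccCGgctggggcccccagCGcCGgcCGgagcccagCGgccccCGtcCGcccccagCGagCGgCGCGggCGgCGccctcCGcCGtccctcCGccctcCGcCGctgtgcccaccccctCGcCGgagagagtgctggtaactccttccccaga
GPT2, H3K27ac only, chr16:46918124-46918273, plus strand: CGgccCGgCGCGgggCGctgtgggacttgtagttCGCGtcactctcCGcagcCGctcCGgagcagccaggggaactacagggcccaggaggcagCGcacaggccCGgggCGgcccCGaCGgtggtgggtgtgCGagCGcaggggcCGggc
GCDH, H3K27ac only, chr19:13001824-13001973, plus strand: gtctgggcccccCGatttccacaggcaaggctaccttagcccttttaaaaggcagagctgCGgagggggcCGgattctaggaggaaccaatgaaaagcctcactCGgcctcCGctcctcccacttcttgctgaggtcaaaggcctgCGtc
DSG3, H3K4me3 only, chr18:29027554-29027703, plus strand: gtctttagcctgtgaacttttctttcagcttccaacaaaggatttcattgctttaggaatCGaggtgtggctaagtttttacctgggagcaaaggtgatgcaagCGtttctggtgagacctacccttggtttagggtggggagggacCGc
Inside PBX3, H3K27ac only, chr9:128651831-128651980, intronic: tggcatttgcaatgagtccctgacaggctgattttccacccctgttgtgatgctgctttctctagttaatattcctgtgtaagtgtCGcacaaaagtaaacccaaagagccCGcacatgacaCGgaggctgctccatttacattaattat

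HIPK3, a homeodomain-interacting kinase, had 26 CpGs in these bases, WDR5, a core subunit of the H3K4 methyltransferase complexes, had 21, and the cell cycle kinase CDK6 had 20. GPT2, a mitochondrial alanine transaminase, had 18 and GCDH, glutaryl-CoA dehydrogenase of lysine breakdown, had 6. The desmosomal cadherin DSG3 had 3, as did the window inside PBX3, a TALE homeodomain factor. Among these picked examples, CpG counts ran high at the promoters with both marks and low at the one with H3K4me3 only, DSG3. DSG3 had both marks in siCONT cells, and the examples do not test the classes.

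Nearly every H3K27ac region lay on H3K4me3, while most H3K4me3 regions had no H3K27ac. H3K4me3 overlapped 16557 of the 17672 H3K27ac regions by at least 1 bp, or 93.7% [93.3 to 94.0], and left 1115. H3K27ac overlapped 15547 of the 56943 H3K4me3 regions, or 27.3% [26.9 to 27.7], and left 41396. Counted in bases, the marks shared 11.01 Mb, which was 89.0% of the 12.4 Mb under H3K27ac and 26.6% of the 41.4 Mb under H3K4me3. The H3K4me3 list was much the longer, and when it was shortened to the 17672 strongest regions the shares became 65.3% of H3K27ac and 57.1% of H3K4me3 regions. In siCONT cells, with the full lists, 88.6% of H3K27ac regions and 33.1% of H3K4me3 regions were shared. The second share was lower after knockdown, where the H3K27ac list was also shorter. The siCONT H3K27ac list had 19705 regions over 17.3 Mb. With both siCONT lists at that number of regions, the siCONT shares were 59.6% of H3K27ac and 60.1% of H3K4me3 regions. The direction of the first share turned with the overlap asked for. When at least 50% of both regions had to overlap, the H3K27ac share was 66.4% [65.7 to 67.1] in siDLEU1 and 67.8% in siCONT cells.

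The shorter list of siDLEU1 cells came from the deeper library. From the fold enrichment and the p-value of each peak, and with an assumed genome of 2.7 Gb, the siDLEU1 libraries came to about 29.4 M reads for H3K27ac and 22.3 M for H3K4me3. The siCONT libraries came to 21.5 M and 28.4 M, in the opposite order, so that fragment counts of a mark are not on 1 scale between siRNAs. The median summit was built from 68 fragments in the siDLEU1 H3K27ac list and from 41 in the H3K4me3 list. The share of unmarked H3K4me3 regions that a deeper H3K27ac library would reach was not tested.

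Sharing rose with strength in both lists. When regions were ranked by fold enrichment within their list, 99.9% of the strongest decile of H3K27ac regions met H3K4me3 and 78.6% [76.6 to 80.5] of the weakest decile did. For H3K4me3 the share went from 5.29% in the weakest decile to 75.9% [74.8 to 77.0] in the strongest. Even there, 1370 of the strongest H3K4me3 regions had no H3K27ac. The siCONT curve for H3K4me3 was higher than the siDLEU1 curve in the lower 9 deciles and ended at 73.7% in the top decile.

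**Figure D1:**
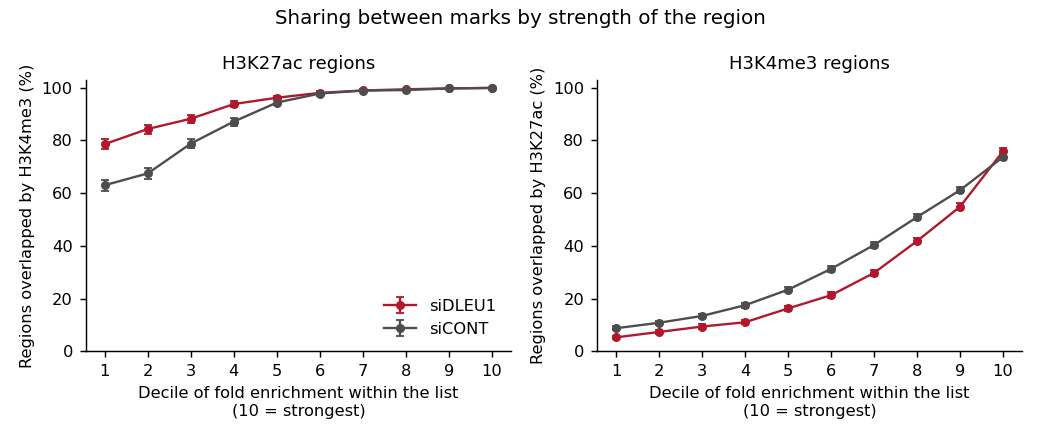
Share of regions overlapped by the other mark (y axis, percent) against the decile of fold enrichment within the region's own list (x axis, 10 strongest), for H3K27ac regions on the left and H3K4me3 regions on the right. Points are shares in siDLEU1 (red) and siCONT (grey) cells with 95% Wilson intervals. H3K27ac sharing approaches 100% in the upper deciles, while H3K4me3 sharing climbs from 5.29% to 75.9% in siDLEU1 cells.

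H3K4me3 was most often without H3K27ac away from TSSs. Within 1 kb of a TSS lay 15576 of the H3K27ac regions (88.1%) and 20508 of the H3K4me3 regions (36.0%). At TSSs, 94.0% of H3K27ac regions met H3K4me3 and 67.4% [66.8 to 68.1] of H3K4me3 regions met H3K27ac. Away from TSSs the shares were 91.2% and 4.71% [4.50 to 4.93]. Of the 41396 H3K4me3 regions without H3K27ac, 19665 were in gene bodies, 15054 were intergenic and 6677 were at TSSs. The distal H3K27ac regions, which are the usual place to look for enhancers, numbered 2096, and all but 184 of them also lay on a called H3K4me3 region. How reads that match several places in the genome were placed is not given in the sources used here, and repeated sequence under these distal regions is not reported.

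Sharing varied more between chromosomes for H3K4me3 than for H3K27ac. H3K27ac regions met H3K4me3 in 86.7% of cases on chromosome 18 and in 96.2% on chromosome 19, the lowest and highest values. H3K4me3 regions met H3K27ac least on chromosome 21, at 21.8%, and most on the gene-dense chromosome 19, at 40.4%.

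CpG content separated the classes. The observed over expected CpG ratio, which corrects the number of CpGs for the C and G content, had a median of 0.74 in H3K27ac regions with H3K4me3 and of 0.79 in those without. It was 0.73 in H3K4me3 regions with H3K27ac but 0.22 in those without, close to the 0.17 of 56715 windows of 300 bp spaced along the genome. The split held at TSSs, where H3K4me3 regions had a median ratio of 0.74 with H3K27ac and of 0.32 without it, and away from TSSs, where the medians were 0.65 and 0.21.

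**Figure D2:**
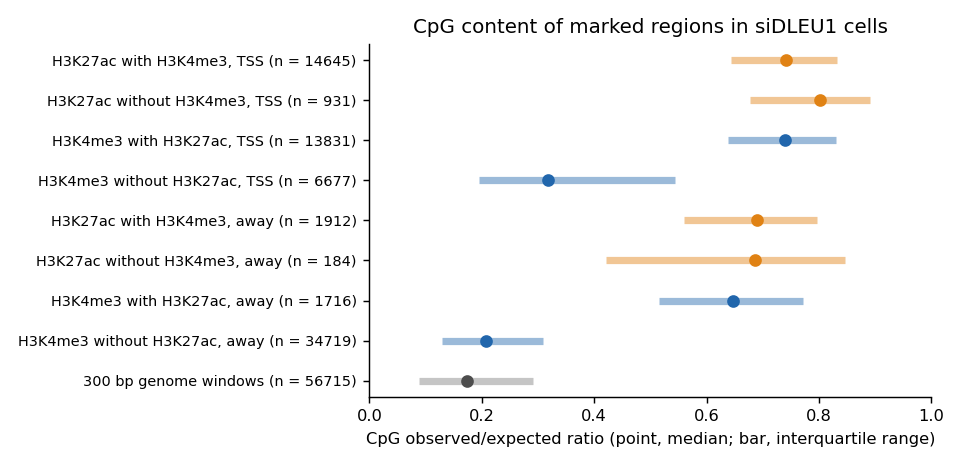
Observed over expected CpG ratio (x axis) of regions in siDLEU1 cells by mark, presence of the other mark and distance to a TSS (rows), with genome windows of 300 bp in grey. Points are medians and bars are interquartile ranges over regions. Away from TSSs, H3K4me3 regions without H3K27ac have a median of 0.21, near the 0.17 of the genome windows. At TSSs their median of 0.32 lies above the upper quartile of the windows, 0.29. All classes with H3K27ac have medians over 0.6.

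Strength did not remove the difference. In the strongest decile of the H3K4me3 list, the 4324 regions with H3K27ac had a median CpG ratio of 0.73 and the 1370 without had 0.23. These CpG-poor regions were wide, with a median of 1823.5 bp against 1349 bp for the strong regions that carried H3K27ac. Of the 2816 H3K4me3 regions wider than 2000 bp, 1581 (56.1%) had no H3K27ac, and 1259 of these were away from TSSs. The siCONT H3K4me3 list held 72.1% of the unshared H3K4me3 regions of siDLEU1 cells and 96.6% of the shared ones.

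Promoter classes also differed in their motif letters. Letters were read in the 250 bases before to 50 after the canonical TSS, while the class came from any annotated TSS of the gene. The promoter read is therefore not always the marked one. With 1 TSS per gene, 889 genes rather than 1172 had H3K4me3 only. TGAGTCA, the AP-1 site read on both strands, was present in 10.3% [8.65 to 12.1] of 1169 genes with H3K4me3 only. It was present in 2.58% of genes with both marks, 5.15% of genes with neither and 4.001% of all 24020 promoters. The GC box bound by SP factors, GGGCGG, was present in 74.9% of promoters with both marks, 74.7% with H3K27ac only, 38.3% with H3K4me3 only, 33.0% with neither and 55.7% of all. The NRF1 letters CGCANGCG were present in 20.5%, 14.8%, 4.53%, 4.31% and 12.9% in the same order. The ETS letters CCGGAAG followed with 20.8%, 8.35%, 2.91%, 3.56% and 12.6%. The low shares with H3K4me3 only were thus close to those of promoters with neither mark. Promoters with H3K27ac only thus resembled those with both marks in GC box letters and lay between those with both and those with H3K4me3 only for NRF1 and ETS. These are matches of letters, not measured binding, and GC-rich letters follow base composition.

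Where the marks met, H3K27ac was the narrower. Each H3K27ac region was paired with the H3K4me3 region that shared most of its bases, and the median ratio of widths over 16557 pairs was 0.820 [0.813 to 0.828], with median widths of 636 and 871 bp. H3K27ac was narrower in 71.3% of the pairs, and 9126 H3K27ac regions lay wholly inside an H3K4me3 region. The ratio was 0.845 at TSSs and 0.572 away from them. In siCONT cells the ratio was 0.971, with 53.9% of pairs narrower in H3K27ac.

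The ratio was lower where H3K4me3 was stronger. It was 1.14 for pairs in the weakest decile of the H3K4me3 list, 1.35 in the next and 0.637 in the strongest, where H3K4me3 regions had a median width of 1481 bp and H3K27ac regions 826 bp. Against the rank of H3K27ac it ran the other way, from 0.442 in the weakest decile to 0.947 in the strongest. Since width rose with rank in each list and the ratio holds the width of the ranked mark, opposite trends follow largely from this construction. In siCONT cells, the ratio likewise went from 1.46 to 0.827 by H3K4me3 rank and from 0.485 to 1.01 by H3K27ac rank. Over the 13116 pairs in which each region met exactly 1 region of the other list, Spearman's rho was 0.69 between widths and 0.52 between ranks, given as a description since both lists come from the same cells.

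The same places could be followed in both siRNAs for 9790 such pairs. There H3K27ac had a median width of 645 bp in siDLEU1 and 828 bp in siCONT cells, and H3K4me3 of 767 and 853 bp. H3K27ac was narrower after knockdown in 91.4% of these places and H3K4me3 in 67.1%. The ratio was lower in 71.6% [70.7 to 72.5], with medians of 0.875 and 0.979. The siDLEU1 H3K27ac library had the larger estimated depth of both H3K27ac libraries, as given above, and the part of depth in these widths was not tested.

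H3K27ac was also more often broken up beneath a single H3K4me3 region. In siDLEU1 cells 1256 H3K4me3 regions covered 2 H3K27ac regions and 140 covered 3 or more, 8.08% and 0.900% of the shared H3K4me3 regions. In siCONT cells these were 474 and 28. The reverse, an H3K27ac region over 2 H3K4me3 regions, occurred 520 times in siDLEU1 and 2120 times in siCONT cells.

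Summits nearly coincided. The median distance between the H3K27ac and H3K4me3 summits of a pair was 52 bp [50 to 53], and 49.3% of pairs had summits within 50 bp. Summits were over 500 bp apart in 11.6%, and in pairs where the H3K4me3 region covered several H3K27ac regions the median was 445 bp. Distal pairs had a median of 47 bp and pairs at TSSs 52 bp. The siCONT median was 44 bp.

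**Figure D3:**
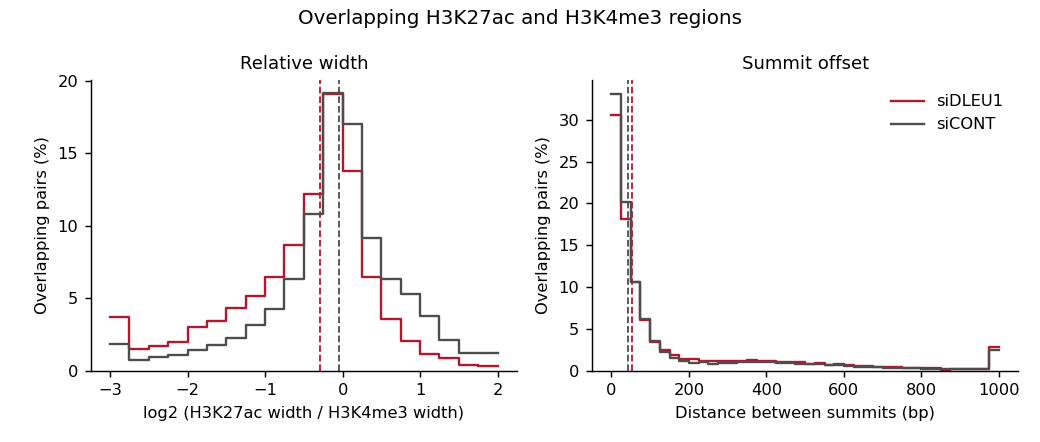
Distribution of the width ratio (left, x axis log2 of H3K27ac width over H3K4me3 width) and of the distance between summits in bp (right) over overlapping pairs, as percent of pairs (y axis), in siDLEU1 (red, 16557 pairs) and siCONT (grey, 17455 pairs) cells. Dashed lines are medians, and the outermost bins hold all values beyond them. The siDLEU1 ratios lie to the left, with a median ratio of 0.820 against 0.971, and the offset curves nearly coincide, with medians of 52 and 44 bp.

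Around TSSs, the marks differed mainly on the upstream side. For 12243 genes with both marks in both siRNAs, H3K27ac regions covered 82.6% of the positions 250 bp downstream of the TSS and H3K4me3 regions 86.0%. At 350 bp upstream, H3K27ac covered 44.5% and H3K4me3 65.3%. Between these shoulders coverage dipped at 100 bp upstream, to 26.5% for H3K27ac and 42.1% for H3K4me3. In siCONT cells, the upstream values were 61.2% and 67.6%, and the downstream values 88.5% and 84.0%. At the dip the order of the marks was the opposite in siCONT cells, with 49.4% for H3K27ac and 39.2% for H3K4me3. At the TSS itself, H3K27ac covered 49.3% and H3K4me3 64.2% in siDLEU1 cells, against 73.6% and 56.0% in siCONT cells. The gap between the marks at 350 bp upstream was thus wider in the siDLEU1 lists than in the siCONT lists, and that difference could not be tested with 1 library each.

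**Figure D4:**
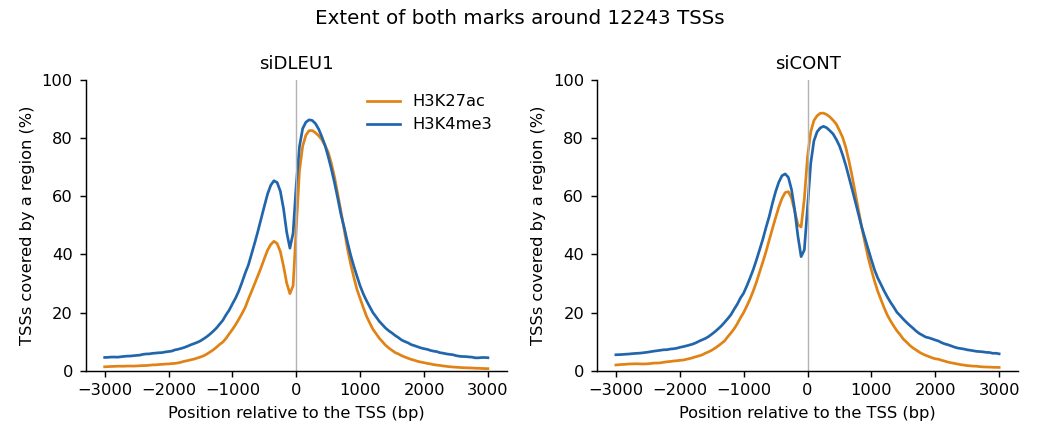
Share of 12243 TSSs covered by a called region (y axis, percent) at each position from 3 kb upstream to 3 kb downstream (x axis, bp, in the direction of transcription), for H3K27ac (orange) and H3K4me3 (blue) in siDLEU1 (left) and siCONT (right) cells. In siDLEU1 cells, the upstream shoulder reaches 44.5% for H3K27ac and 65.3% for H3K4me3, and both marks exceed 80% downstream.

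Summits also lay mostly downstream, H3K27ac more often than H3K4me3. The strongest H3K27ac summit near the TSS lay downstream of it in 78.1% of 11703 genes, at a median of 224 bp [220 to 228]. The H3K4me3 summit lay downstream in 67.6% of 11733 genes, at a median of 169 bp [166 to 172]. Both summits were downstream in 7277 of 11642 genes and both upstream in 1939. They fell on opposite sides in 2424 genes (20.8%), and in 1823 of these H3K27ac was downstream and H3K4me3 upstream.

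Of 24135 genes, 12437 carried both marks within 1 kb of an annotated TSS in siDLEU1 cells, which is 51.5% of all. H3K4me3 alone marked 1172 genes (4.86%), H3K27ac alone marked 432 (1.79%), and 10094 had neither (41.8%). In siCONT cells, the counts were 12848, 823, 747 and 9717 in the same order. Which mark stood alone more often turned with the length of the lists, since equal numbers of regions left 391 genes with H3K4me3 only and 3068 with H3K27ac only. Protein-coding genes had both marks in 57.3% of 19140 cases and lncRNA genes in 29.6% of 4995. H3K4me3 alone was found at 4.17% of protein-coding and 7.47% of lncRNA genes, and H3K27ac alone at 1.95% and 1.18%.

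Genes with 1 mark had weaker regions of it than genes with both. The median H3K27ac region sat at the 17.7th percentile of its list at genes with H3K27ac only and at the 69.8th at genes with both. For H3K4me3, the medians were the 53.5th and the 85.9th. The region widths followed, with medians of 320 and 809 bp for H3K27ac and of 538.5 and 965 bp for H3K4me3. In the 1 kb around the canonical TSS, which need not be the marked one, CpG ratios were compared. They were 0.79 at genes with both, 0.78 with H3K27ac only, 0.30 with H3K4me3 only and 0.32 with neither. Across the 12437 genes with both, the percentiles of the marks had a Spearman rho of 0.50.

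Most genes were in the same class with either siRNA. Both marks were present in 12261 genes with either siRNA. Of the 12848 genes with both in siCONT cells, 335 (2.61%) had H3K4me3 only in siDLEU1 cells. In the opposite direction, of the 823 genes with H3K4me3 only in siCONT cells, 15 (1.82%) had both in siDLEU1 cells. Those 335 genes had weak H3K27ac in siCONT cells, at a median of the 20.9th percentile and 33 fragments. Their H3K4me3 was at the 64.4th percentile in siCONT and the 55.4th in siDLEU1 cells. A further 145 genes went from both to H3K27ac only and 107 from both to neither. Of the 747 genes with H3K27ac only in siCONT cells, 292 had neither mark and 154 had both in siDLEU1 cells.

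The strongest genes with both marks differed in how far H3K27ac filled the H3K4me3 region. At HIPK3, the siDLEU1 H3K27ac region of 1955 bp stood at the 99.93rd percentile with 173 fragments, and the H3K4me3 region of 2975 bp, also among the first of its list, had 281. The siCONT regions there spanned 2776 and 3097 bp. At DSP, which encodes the desmosomal plaque protein desmoplakin and shares its TSS region with DSP-AS1, the regions were 2800 and 2939 bp wide, with 159 and 226 fragments, against 1631 bp for each mark in siCONT cells. YWHAB, a 14-3-3 adaptor protein, had regions of 1205 and 1216 bp. The mitochondrial ribosomal protein gene MRPL23 had an H3K27ac region of 1034 bp inside an H3K4me3 region of 2154 bp.

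Among genes with H3K27ac only, AEBP1, a transcriptional repressor and secreted carboxypeptidase-like protein, stood first. Its H3K27ac region, chr7:44150280-44153979, was 3700 bp wide, at the 99.95th percentile with 204 fragments, and in siCONT cells it was 3712 bp wide at the 78.1st percentile with 137 fragments. No H3K4me3 region lay within 1 kb of its TSSs with either siRNA. CFAP69, a cilium and sperm flagellum protein, had an H3K27ac region of 873 bp at the 92.9th percentile, and its siCONT H3K4me3 region of 258 bp was weak, at the 27.2nd percentile. GCDH, the gap junction gene GJD3 and GPT2 followed, at the 84.6th, 83.1st and 77.4th percentiles, and had no H3K4me3 region with either siRNA. H3K27ac was therefore strong without called H3K4me3 near an annotated TSS of a few genes, which need not be the canonical TSS.

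Among genes with H3K4me3 only, ZMYND8, an acetyl-lysine reader, stood first, with a region of 5427 bp and 254 fragments at chr20:45985561-45990987. ZMYND8 had no H3K27ac with either siRNA. CROCC, the rootletin gene, had an H3K4me3 region of 752 bp with 307 fragments, and in siCONT cells a weak H3K27ac region of 544 bp with 52 fragments lay on the same place. CROCC has near-identical copies in the genome, so the placement of its reads is uncertain. ACSM3, a medium-chain acyl-CoA synthetase gene, had H3K4me3 of 1956 bp with 285 fragments, and its siCONT H3K27ac region lay at another TSS of the gene. The ACSM3 region is also that of the neighbouring ACSM1, which had both marks, with H3K27ac of 185 bp at the 20.5th percentile. TMEM95, a sperm membrane protein gene, had H3K4me3 of 3951 bp, a region that also belongs to ACAP1, which had both marks, with H3K27ac of 1123 bp at the 83.4th percentile. HCFC1R1 shares its H3K4me3 region of 4032 bp with THOC6, and in siCONT cells an H3K27ac region of 1098 bp with 64 fragments lay there. Of the first 5 genes, ACSM3 and TMEM95 thus share their region with a gene that had both marks.

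Gene lists were read against the 51.5% of all genes with both marks. All 16 housekeeping genes, all 19 genes of the H3K4 methyltransferase complexes and H3K4 demethylases, all 16 acetylation writers, readers and erasers and all 16 head and neck cancer genes had both. So did all 18 interferon receptor, JAK-STAT and feedback genes. By contrast, 4 of 24 developmental regulators had both, 18 had neither, PAX6 had H3K4me3 only and NEUROG2 had H3K27ac only. Of the 15 genes around DLEU1 in 13q14, 11 had both, and DLEU1 itself had H3K27ac at the 87.2nd and H3K4me3 at the 98.9th percentile, of 727 and 1561 bp. The AP-1 family had both marks at 8 of 10 genes, with BATF and BATF3 without either.

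**Figure D5:**
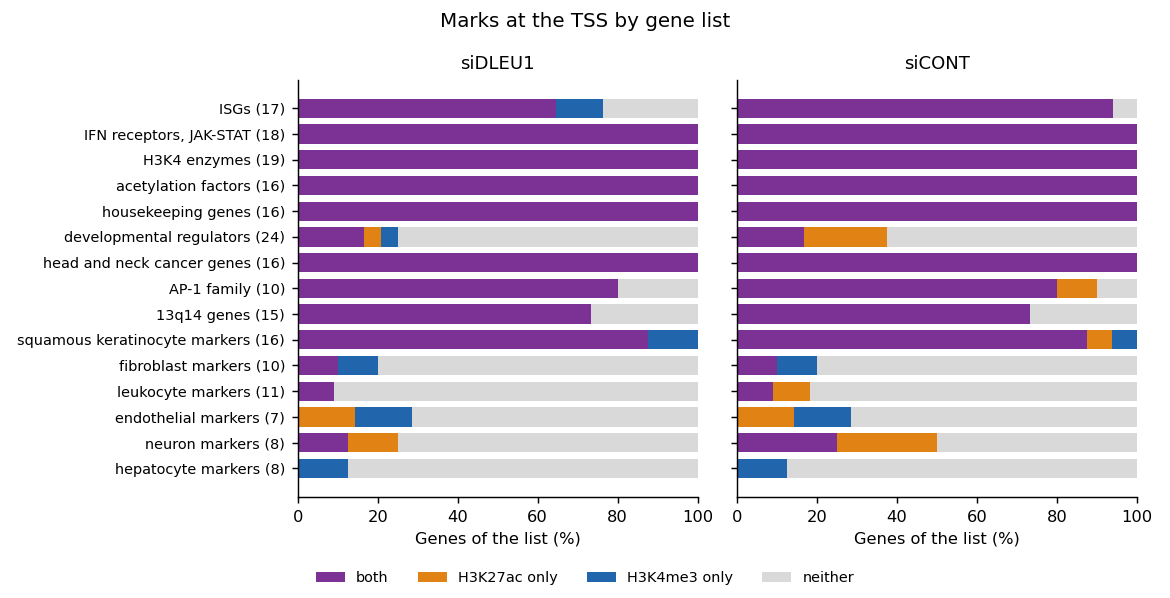
Share of the genes of each list (y axis, number of genes found in brackets) with both marks, 1 mark or neither within 1 kb of a TSS (x axis, percent), in siDLEU1 (left) and siCONT (right) cells. In siDLEU1 cells, 5 lists have both marks at every gene, while 11 of 17 interferon signaling genes (ISGs) have both, against 16 of 17 in siCONT cells.

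In the lists with both marks at every gene, H3K4me3 had the higher median percentile. The same held over all genes with both marks in siDLEU1 cells, at 85.9 for H3K4me3 and 69.8 for H3K27ac. Percentiles rank regions within unlike peak lists, since 88.1% of H3K27ac but 36.0% of H3K4me3 regions lay at TSSs. Whether the balance of marks differed between gene lists was not tested. Housekeeping genes had median percentiles of 72.3 for H3K27ac and 92.7 for H3K4me3, and head and neck cancer genes 83.5 and 94.8, with median widths of 2040 and 2587 bp. EGFR, the receptor tyrosine kinase amplified in many head and neck cancers, had H3K27ac of 2103 bp at the 99.4th percentile and H3K4me3 of 3248 bp at the 97.6th. CASP8, the initiator caspase of death receptors, was uneven, with H3K27ac at the 11.9th and H3K4me3 at the 93.8th percentile. CXXC1, the CpG-binding subunit of the SETD1 complexes, had the lowest ranks of its list, the 3.07th and 42.3rd percentiles. Another subunit gene, SETD1B, had H3K4me3 of 4542 bp at the 99.9th percentile over H3K27ac of 1136 bp at the 86.1st.

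Markers fit the labelled cell type. Of 16 squamous keratinocyte markers, 14 had both marks and 2, KRT16 and DSG3, had H3K4me3 only, with no marker left bare. KRT14, a basal keratin, had regions of 2288 and 2890 bp. SFN, the epithelial 14-3-3 sigma gene, had H3K4me3 of 9487 bp over H3K27ac of 1911 bp, and LAMB3, a chain of laminin 332, had 3587 over 886 bp. KRT16, a stress keratin, had an H3K4me3 region of 702 bp with 58 fragments, and in siCONT cells it was also marked by H3K4me3 only. DSG3 had H3K4me3 of 789 bp in siDLEU1 cells, and in siCONT cells an H3K27ac region of 308 bp with 35 fragments beside H3K4me3 of 1189 bp.

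Markers of other cell types were mostly bare. Neither mark was found at 8 of 10 fibroblast, 10 of 11 leukocyte, 5 of 7 endothelial, 6 of 8 neuron and 7 of 8 hepatocyte markers. Over all genes, 41.8% had neither mark, and these lists are short. Both marks were found at COL1A1, CD14 and SYT1, with H3K27ac at the 6.11th, 9.06th and 11.5th percentiles. FAP, VWF and SERPINA1 had H3K4me3 only, and ERG and MAP2 had H3K27ac only.

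Among the 17 interferon signaling genes, 11 had both marks in siDLEU1 cells, 2 had H3K4me3 only and 4 had neither. In siCONT cells, 16 had both and IRF4 had neither. The study drew these genes from expression arrays of OSCC cells with the same knockdown, HSC3 included. Before that, it had found interferon signaling genes enriched among genes selected for lower H3K27ac at the TSS in these same ChIP-seq libraries. The direction of these genes is therefore not independent evidence. Their median CpG ratio around the TSS was 0.31, against 0.80 for the interferon receptor and JAK-STAT genes. Their median percentiles were 39.0 for H3K27ac and 80.4 for H3K4me3 where marked, and 58.7 and 90.3 in siCONT cells.

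OAS1, a sensor of double-stranded RNA, and IFI6, a mitochondrial and endoplasmic reticulum protein, had H3K4me3 only. At OAS1 the siDLEU1 H3K4me3 region was 805 bp wide with 30 fragments, and the siCONT regions were 1084 bp with 87 fragments for H3K27ac and 1958 bp with 127 for H3K4me3. At IFI6 the siDLEU1 H3K4me3 region was 197 bp wide with 24 fragments, and the siCONT regions were 587 bp with 80 fragments and 350 bp with 61. H3K4me3 at both genes was therefore itself weak, at the 38.6th and 6.77th percentiles.

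MX2, OASL and XAF1 had neither mark in siDLEU1 cells and both in siCONT cells. OASL had 84 fragments of H3K27ac and 46 of H3K4me3 in siCONT cells, MX2 had 46 and 68, and XAF1 had 54 and 87. At IFIT3 and OAS2, which had both, H3K4me3 ranked far higher than H3K27ac. IFIT3 had H3K27ac of 243 bp at the 7.97th percentile and H3K4me3 of 1201 bp at the 80.98th, and the siCONT values were 771 bp at the 22.7th and 2226 bp at the 85.7th. OAS2 had H3K27ac at the 16.5th and H3K4me3 at the 79.1st percentile.

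Some genes of the list stood high for both. IFITM3, which blocks viral entry, had H3K27ac of 2326 bp at the 98.6th percentile and H3K4me3 of 3208 bp at the 96.2nd. ADAR, the RNA editing enzyme, had the 99.1st and 95.5th percentiles, above its siCONT H3K27ac percentile of 81.1. Its H3K27ac region had 896 bp and 138 fragments in siDLEU1 cells, and 1202 bp and 125 fragments in siCONT cells. For IFITM3, H3K27ac was at the 71.5th percentile with 186 fragments in siCONT cells, against 139 fragments in siDLEU1 cells. A higher rank within another list is thus not by itself a gain of the mark. IFI27 was the weakest gene with both marks by H3K27ac, at the 7.08th percentile with 335 bp, against the 83.5th with 1470 bp in siCONT cells.

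The letters GAAANNGAA or their reverse complement are the core of the interferon-stimulated response element. Examples are a gene with both marks, a gene with H3K4me3 only and a gene with neither. Letters found in the 150 bases before the canonical TSS are shown in capitals, in 30 bases around the match nearest the TSS. They start 102, 93 and 58 bp before the TSS, in the order shown.
IFIT1, both marks, chr10:91152267-91152296, plus strand: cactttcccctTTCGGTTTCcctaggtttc
IFI6, H3K4me3 only, chr1:27998778-27998807, minus strand: tgcagagtgcaGAAATAGAAactccgacag
OASL, neither mark, chr12:121477089-121477118, minus strand: cactatccaacTTCAGTTTCccaacgtcat

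A match was needed for a gene to be shown, so these examples do not compare the classes. IFIT1, IFI6 and OASL all had both marks in siCONT cells. Over all promoters, the letters were sought from 250 bases before to 50 after the canonical TSS. They were found in 6.34% of promoters with both marks, 5.57% with H3K27ac only, 8.55% with H3K4me3 only, 8.78% with neither and 7.45% of all.

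The H3K4me3 regions without H3K27ac away from TSSs numbered 34719, with a median of 34 fragments at the summit, a median width of 427 bp and a median distance of 16.1 kb to the nearest TSS. Their summits lay a median of 43.1 kb from the nearest H3K27ac summit. TGAGTCA was found in the 300 bp around 5.98% [5.74 to 6.24] of these summits and in 4.54% [4.37 to 4.71] of genome windows of that length. Among those in the weakest decile of the H3K4me3 list the share was 6.67% [5.99 to 7.43]. In the strongest decile it was 5.35% [4.17 to 6.84], an interval that includes the genome value. The windows were not matched for base composition, with a median GC of 40% against 47.5% in these regions. Of all H3K4me3 regions without H3K27ac, the strongest lay at chr19:21787453-21788201, 63380 bp from ZNF429, with 292 fragments over 749 bp, and in siCONT cells an H3K27ac region overlapped it. Near a TSS, a region of 2755 bp with 232 fragments lay at PRKCH, a protein kinase C gene, 406 bp from the nearest annotated TSS. That TSS need not be the canonical one.

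The 184 distal H3K27ac regions without H3K4me3 were narrow and weak, with a median width of 244.5 bp and a median at the 12.9th percentile. The strongest was 805 bp wide, with a CpG ratio of 0.91 and 78 fragments, 4601 bp from LINC01880. In siCONT cells an H3K4me3 region overlapped it. The PBX3 region shown above was 482 bp wide with 56 fragments, and no siCONT H3K4me3 region overlapped it. Of the 184 regions, 164 were overlapped by siCONT H3K27ac.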

How the data were processed

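In HSC3 cells, ChIP-seq of H3K27ac and H3K4me3 was examined 72 h after siDLEU1 or siCONT, with 1 library per mark and siRNA. Ion Proton reads were mapped by the authors with bowtie2 to hg19, and peaks were called in each library with MACS2. The deposited lists give a fold ratio over local background, −log10 p and −log10 q. The deposited score column and the 2 input libraries were not used, and the peak calling settings are not given in the sources used here.

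Regions that shared at least 1 bp were counted as overlapping, and strength was the percentile of fold enrichment within a list, 100 being the strongest. Genes were protein-coding or lncRNA genes of GENCODE (GRCh37) with a curated RefSeq transcript, and each took its strongest region within 1 kb of any TSS. Fragments at a summit were solved from fold ratio and p, and gave back the p of 100% of the peaks. On simulated data, fragments were recovered for 99.5% of 2000 peaks, and overlap shares without error over 5000 regions. The members and lists were chosen with earlier results of these data known. Named genes were members of 15 lists, the 5 strongest genes of each marked class, and the genes nearest the 5 strongest unshared regions of each mark, for H3K27ac away from TSSs. Among these, the printed sequences were picked after values were seen, as were THOC6, ACSM1 and ACAP1, named for shared regions. Some items are not reported here. Shares have 95% Wilson intervals and medians order-statistic intervals. Alternatives were stricter peaks, a larger overlap, stitching, equal list lengths, all sequences, other pairings, wider windows and 1 TSS per gene. Scripts used Python (3.11.15) with numpy (2.4.6), pandas (2.3.3), scipy (1.17.1) and matplotlib (3.10.9).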

Additional observations from a re-analysis of the deposited data

How the results depend on the processing

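Of 38 alternatives, 20 left the value within its interval or, for a count of genes, within 1.5 times. With −log10 q of at least 10 in both lists, H3K27ac sharing was 90.2%, H3K4me3 sharing 35.7% and the width ratio 0.882, with 656 genes with H3K27ac only and 1813 with H3K4me3 only. With lists of equal length, sharing was 65.3% and 57.1%, the ratio 0.731 and the offset 57 bp, with 3068 genes with H3K27ac only and 391 with H3K4me3 only, so which mark stands alone more often turns with list length. An overlap of 50% of both regions gave 66.4% and 20.6%, against 67.8% and 22.8% in siCONT cells, so that the H3K27ac share was no longer the higher in siDLEU1 cells. Stitching within 1 kb gave 94.9%, 35.3% and a ratio of 0.842. Pairs of 1 region with 1 region gave a ratio of 0.887 and an offset of 43 bp. Genes with both marks ranged from 9801 to 12995.

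No paired analysis was possible because each mark and siRNA has 1 library, and leaving out a replicate was not possible for the same reason. Unshared regions rested on few fragments, a median of 34 for H3K4me3 and 37 for H3K27ac, and how many a deeper library would share was not tested.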
